A study of Mus musculus with 2 samples.

Results

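The Vmp1 and microRNA-21 locus is a stretch of 140 kb on mouse chromosome 11, from 86370000 to 86510000 in the mm9 build, in which REV-ERBα chromatin immunoprecipitation gave 5 peaks. A peak was taken as a member when its midpoint lay between these bounds, which were drawn to hold Vmp1 and Mir21a. The 5 peaks are part of 28 in the surrounding 1 Mb window (86000000 to 87000000), of 697 on the chromosome and of 8884 in the whole list. The window and the locus were chosen by their number of listed peaks and by the tag count of their strongest peak. Numbers, tag counts, input, score and spacing are therefore given as descriptions, with no test. The cells were wild-type mouse T helper 17 (Th17) cells, CD4 T cells that make interleukin-17, differentiated in primary culture. The labels name no mutant, drug or time point, and the data hold 1 library from an antibody to REV-ERBα and 1 of input DNA from such cells. There is no replicate behind any value, and the intervals given are 95% intervals that cover counting error only.

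REV-ERBα, a nuclear receptor and part of the circadian clock, lacks an activating helix and represses transcription through the corepressor NCoR and the deacetylase HDAC3. It binds the same DNA element as ROR receptors, among them RORγt, the factor that defines Th17 cells. Vmp1 encodes vacuole membrane protein 1, a protein of the endoplasmic reticulum membrane that autophagosome formation needs. The hairpin of microRNA-21 lies at the end of the Vmp1 gene on the same strand, and its precursor can be transcribed from a promoter of its own inside Vmp1. MicroRNA-21 is known to rise in activated T cells, where Pdcd4 is among its targets, and to favour Th17 differentiation by targeting Smad7.

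The mature products annotated for Mir21a are mmu-miR-21a-5p and mmu-miR-21a-3p, and no RNA was measured here. They are printed from RefSeq (GRCm38.p6), 5′ to 3′, with the seed, bases 2 to 8, in capitals. Below them stands mmu-miR-21c, another mature name that shares the seed of mmu-miR-21a-5p.
mmu-miR-21a-5p: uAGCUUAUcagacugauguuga
mmu-miR-21a-3p: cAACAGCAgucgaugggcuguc
mmu-miR-21c: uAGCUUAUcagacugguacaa
Of 1679 mature mouse names in the table, mmu-miR-21c was the only other one with the seed AGCUUAU, and no other had the seed AACAGCA. In the same RefSeq annotation, Vmp1 stands between the protein-coding genes Tubd1 and Ptrh2. Rps6kb1, the S6 kinase that acts downstream of mTOR, follows Tubd1 on the one side, then Rnft1, Med13 and Ints2. On the other side Ptrh2 is followed by Cltc, the clathrin heavy chain, then Dhx40, Ypel2 and Gdpd1. No mm9 gene models or mm9 sequence were used here. The peaks could therefore not be assigned to exons, introns or promoters of these genes, nor to the microRNA, and are given by position.

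The strongest peak of the locus had the most tags on the chromosome, by 1 tag. The next, at chr11:4338247-4338553, held 54 tags and had the same score of 47, so the order of the 2 is not resolved. The locus peak lay at chr11:86437821-86438127 and held 55 ChIP tags (Poisson interval 41.4 to 71.6), 86.1 in the authors' scaling to 10000000 tags. Its score, the peak height given by the caller, was 47. Input gave 1.9 tags after the authors' scaling to ChIP depth, and the authors' fold over input was 29.1. In the whole list, 10 peaks had at least 55 tags and 12 had a score of at least 47, this one included. The peak stood well above input, but the size of its fold is poorly fixed, because it rests on 2 input tags (binomial interval 7.68 to 246).

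The next peak by tags lay 28.3 kb to its right, at chr11:86466138-86466444. It held 31 tags (21.1 to 44.0), with a score of 26, 2.8 scaled input tags and a fold over input of 10.9 (3.41 to 55.9). Its Poisson interval overlaps that of the strongest peak by a small margin. A pair of peaks of nearly equal height lay on the left. The nearer one, at chr11:86406603-86406909, held 26 tags (17.0 to 38.1), with a score of 20, 4.7 scaled input tags and a fold of 5.50 (2.08 to 18.3). The farther one, at chr11:86390766-86391072, held 25 tags (16.2 to 36.9), also with a score of 20 and 4.7 scaled input tags, and a fold of 5.29 (1.99 to 17.7). These 3 peaks cannot be ranked, since their tag intervals overlap widely. The weakest member, at chr11:86486193-86486499, held 14 tags (7.65 to 23.5), with a score of 11, 2.8 scaled input tags and a fold of 4.94 (1.38 to 26.8). It alone lay below 15 tags, the median of the list.

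**Figure D1:**
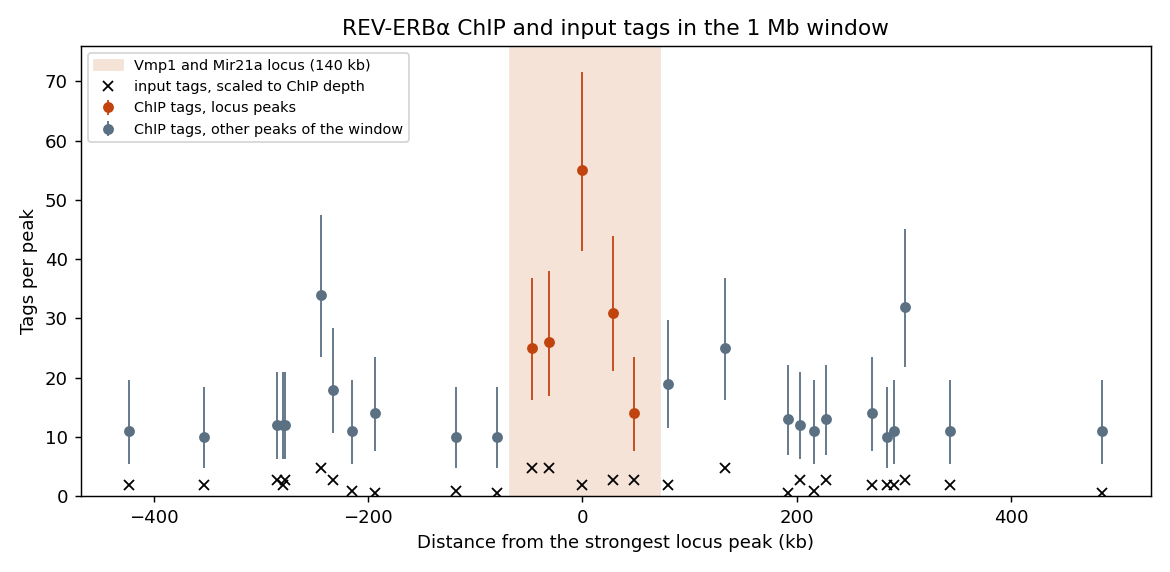
ChIP tags per peak (points, with 95% Poisson intervals) and input tags scaled to ChIP depth (crosses) against the distance in kb from the strongest peak of the locus, for the 28 peaks of the 1 Mb window. The locus, shaded, holds the peak of 55 tags with peaks of 25, 26, 31 and 14 tags beside it, and outside it the highest count is 34.

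Peak number and tags per length are given first for the locus and the rest of its window, as values that the choice of the locus used. There were 3.57 peaks per 100 kb in the locus (Poisson interval 1.16 to 8.33) and 2.67 in the other 860 kb (1.70 to 4.01), a ratio of 1.34 with overlapping intervals. Tags in peaks numbered 151 in the locus and 336 in the rest, or 108 and 39.1 per 100 kb, a ratio of 2.76. The locus covers 14% of the window and held 17.9% of its peaks and 31.0% of its tags. Of the 151 tags, the strongest peak gave 36.4%.

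Tag counts in the locus had a median of 26, against 12 in the 23 other peaks of the window and 15 in the list. The counts of the groups overlap: the others ran from 10 to 34, so that the member of 14 tags lay among them. At least 20 tags, the upper quartile of the list, were found in 4 of 5 locus peaks and in 3 of 23 others, where 26.4% of all listed peaks reach this count. Nothing is read from this contrast, because the tag counts were known when the locus was picked. Scores had medians of 20 in the locus, 11 in the rest of the window and 13 in the list. The score is the height of the same tags, so its like order is no separate check.

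**Figure D2:**
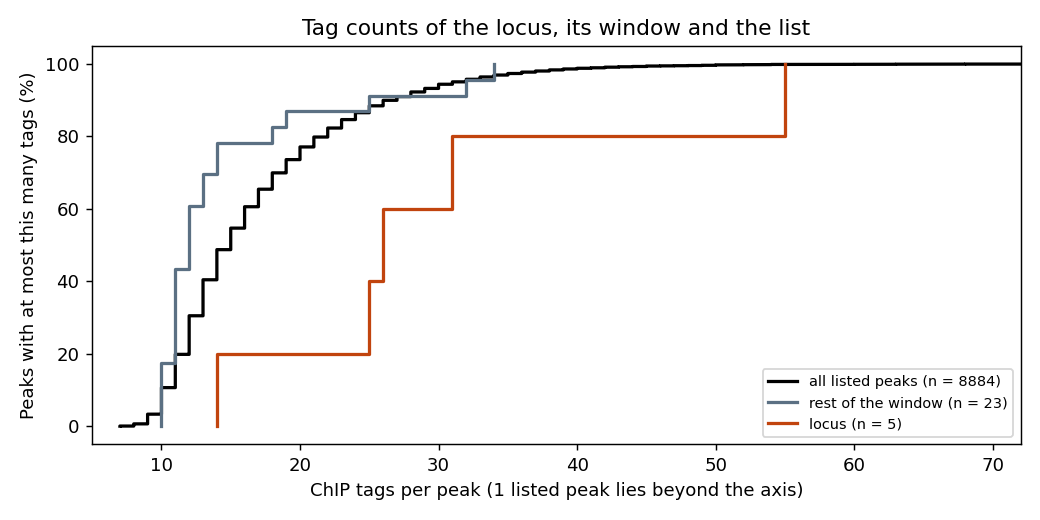
Percent of peaks with at most a given number of ChIP tags, for all 8884 listed peaks, the 23 peaks of the window outside the locus and the 5 locus peaks. The curve of the locus has its median at 26 tags, and that of the rest of the window at 12, left of the list's median of 15.

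Outside the locus, 3 peaks of the window came close to its middle members. The peak at chr11:86193982-86194288 held 34 tags (23.5 to 47.5), with a score of 27, 4.7 scaled input tags and a fold of 7.19. The peak at chr11:86738709-86739015 held 32 tags (21.9 to 45.2), with a score of 25, 2.8 scaled input tags and a fold of 11.3. The peak at chr11:86571035-86571341 held 25 tags, with 4.7 scaled input tags and a fold of 5.29, as the leftmost member did. Its score was higher, 23 against 20, and so was its fold over the surrounding 10 kb, 8.34 against 4.15. Relative to the strongest peak of the locus they lay at -244, 301 and 133 kb, negative values being to its left.

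Enrichment over input was modest for most of the locus. Its median fold was 5.50, against 6.35 in the rest of the window and 10.6 in the list. Only the strongest peak and the one of 31 tags were at least 8-fold over input, 2 of 5, while 9 of 23 others in the window and 61.5% of the list were. Input had a median of 2.8 scaled tags in the locus and 1.9 in both the rest of the window and the list. The strongest member was at 1.9, the median of the list, and the 4 others were at 2.8 or 4.7. None of the 5 was listed at the lowest input value, 0.5, which was read as no input tag. In the rest of the window 4 of 23 were, and 16.8% of the list. With 2 to 5 input tags behind each value, counting error on the input side is wide.

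**Figure D3:**
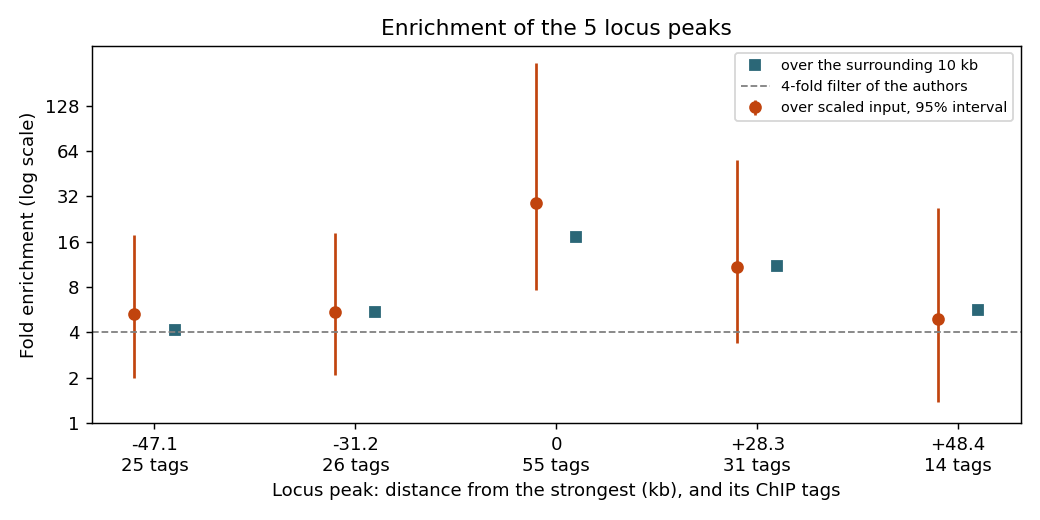
Fold enrichment on a log scale for the 5 locus peaks, ordered by position: over scaled input (circles, with 95% binomial intervals) and over the surrounding 10 kb (squares). The peak of 55 tags reaches 29.1-fold over input and 17.2-fold over its surroundings, while the peak of 25 tags lies at 5.29-fold and 4.15-fold, near the authors' filter at 4-fold.

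The surroundings of the peaks differed along the locus. The caller also gives a fold over the local region of 10 kb, and tags divided by this fold give the ChIP level around a peak per peak width. This level was 6.02 tags at the leftmost member, then 4.77, 3.19 at the strongest, 2.81, and 2.50 at the rightmost. The values in the rest of the window ran from 1.42 to 2.998, with a median of 1.77, and the list had a median of 1.93. The 3 members on the left thus lay above every other peak of the window, and the other 2 lay within its range. This order depends on the tag counts, because the 4-fold local filter limits the level to tags divided by 4. A peak of 12 tags, the median of the rest of the window, cannot reach the 3.19 of the strongest peak.

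Part of this level goes with the height of a peak, so each member was set beside the listed peaks of like tag count. For the peak of 25 tags, 770 such peaks of 23 to 27 tags had a median local level of 2.49, and 5 of them (0.649%) reached 6.02. The filter over the local region allows at most 6.25 at 25 tags, so this member just passed: its local fold was 4.15, and 1.02% of the list had a lower one. For the peak of 26 tags the median of 971 peaks of 23 to 29 tags was 2.53, and 5.56% reached 4.77. The strongest peak went the other way, with 3.19 against a median of 4.10 in 30 peaks of 49 to 61 tags, of which 70% reached its level. The peak of 31 tags, at 2.81, was near the median of 2.94 in 528 peaks of 28 to 34 tags, of which 54.4% reached it. The peak of 14 tags, at 2.50, lay above the median of 1.83 in 2149 peaks of 13 to 15 tags, of which 21.8% reached it.

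Input was also above the median of like peaks at the 2 leftmost members. Both had 4.7 scaled input tags, where like peaks had a median of 1.89, and 11.8% and 12.5% of like peaks had as much. For the members of 55, 31 and 14 tags, 70%, 54.5% and 22.3% of like peaks had as much input. The part of input in the raised local level was not tested. Neighbouring listed peaks lay at least 15.8 kb away from either of the 2 peaks on the left. The part of neighbouring or unlisted sites in their local level was not tested.

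**Figure D4:**
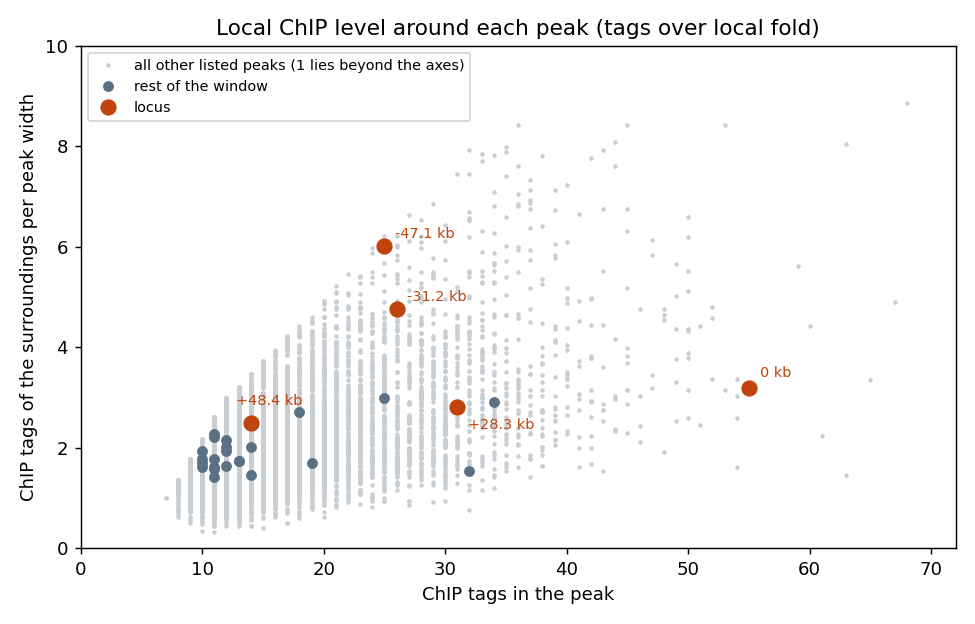
ChIP tags of the surroundings per peak width (tags over the authors' local fold) against ChIP tags in the peak, for the listed peaks (grey), the rest of the window (blue) and the locus (orange, with the distance from the strongest peak in kb). For its tags, the member at -47.1 kb lies near the upper edge of the list at 6.02. The member at -31.2 kb lies high but below that edge at 4.77, and the strongest peak lies low for its tags at 3.19.

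The 5 peaks were spread over most of the locus. From left to right the midpoints were 15.8, 31.2, 28.3 and 20.1 kb apart, and 95.4 kb lay between the first and the last. No member had a neighbour within 10 kb (0 of 5), whereas 5 of 23 others in the window and 33.7% of the list had one. The 5 members are peaks of 1 library and not replicates, so no interval is given for this count. Within 20 kb, 2 members had a neighbour, the pair on the left, against 14 of 23 others in the window (60.9%) and 49.7% of the list. The last 2 members, 20.1 kb apart, fell just beyond this distance. Within 30 kb all 5 had one, against 15 of 23 others (65.2%) and 59.3% of the list. A site near a member is listed only if it also passes the 4-fold local filter, so these counts depend on that filter.

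The gaps between the locus and its flanks were only slightly wider than the widest gap inside it. The nearest peak outside on the left, at chr11:86358365-86358671, lay 32.4 kb from the first member and held 10 tags, with 0.5 scaled input tags and a score of 10. The nearest on the right, at chr11:86517482-86517788, lay 31.3 kb from the last member and held 19 tags, with 1.9 scaled input tags and a score of 18. Both gaps are close to the widest one inside, 31.2 kb. With bounds 20 kb wider on each side, these 2 peaks would be members. At the ends of the window, the first peak inside held 11 tags and the last one also 11. The next peaks beyond held 13 tags, 99.2 kb to the left of the first, and 37 tags, 314 kb to the right of the last.

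The window as a whole held many peaks, of which few had close neighbours. On a fixed grid of 1 Mb it ranked second in the list, with 28 peaks, and 9 grid windows had at least 25. Here 5 of 28 peaks (17.9%) had a neighbour within 10 kb, the lowest share of the 9, where the 8 others had 32% to 72%. The median distance to the nearest peak was 15.8 kb, against 4.27 to 14.5 kb in the 8 others. The window also had the lowest median tag count of the 9, 12.5 against 14 to 19, together with the highest single peak, 55 tags against 26 to 54. These windows were picked for their density, so the order is a description of this list.

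**Figure D5:**
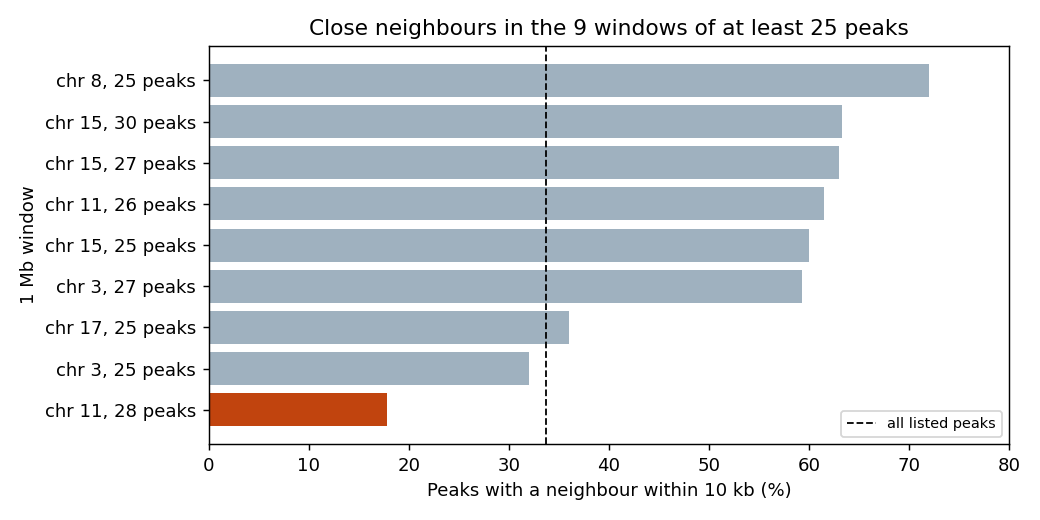
Percent of peaks with a neighbour within 10 kb in the 9 windows of 1 Mb with at least 25 peaks, named by chromosome and number of peaks. The window around Vmp1 (orange) stands at 17.9%, the others at 32% to 72%, and all listed peaks at 33.7% (dashed line).

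Among strong peaks of the list, the one at the locus lay within the range of the others in its spacing and its surroundings. Apart from the region of extreme tags and input on chromosome 2, 13 listed peaks had at least 54 tags. The 12 others had their nearest neighbour at 6.85 to 95.3 kb, with a median of 19.1 kb, and 3 of them had one within 10 kb. The strongest peak of the locus had its nearest neighbour at 28.3 kb. Within 70 kb on either side it had 5 peaks with 151 tags, itself included, while the 12 others had 1 to 8 peaks with 61 to 232 tags and medians of 4.5 and 126.5. Its local fold of 17.2 lay in the middle, with 6 of the 12 above it. In the list as a whole, 4.75% of peaks had at least 151 tags within 70 kb. The 151 tags are those of the 5 locus peaks, values that the choice of the locus used. Neighbouring peaks also share such stretches, so nothing is read from this share.

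The DNA element of REV-ERBα was looked for in the Vmp1 promoters, because peak sequences were not used here. RefSeq windows (GRCm38.p6) run from 250 bases before to 50 after a start, and Vmp1 has 3. The half-site AGGTCA, on either strand, was found in 1 of these 3 windows and in 16.3% of the 32851 windows of all genes. It lies before the start of the second window, and is shown in capitals within 30 bases, 5′ to 3′ on the strand of the gene.
Vmp1 second start: ttgagatggctcAGGTCActgctgactggc
The longer TAGGTCA, which contains the half-site and has the preceding T of the preferred element, was in none of the 3 windows and in 2.61% of all. A direct repeat of the half-site with 2 bases between its copies was also in none, and in 3 of all windows. These matches describe the letters of the windows. None of the 5 peaks could be placed on them.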

How the data were processed

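REV-ERBα ChIP and input were sequenced from Th17 cells, 1 library each. Per the submitters' processing notes, CASAVA 1.8.2, Bowtie and HOMER were used with mm9; for Bowtie and HOMER the version is not given in the sources used here. Per the file headers, HOMER findPeaks called peaks of 306 bp, at least 612 bp apart, at a false discovery rate of 0.001, then filtered them at 4-fold and at a Poisson threshold of 1e-04 against input and against the local 10000 bp, with at most 1 tag per bp considered. The ChIP library had 6390234 tags.

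Total tags are counts deposited by the authors without normalization. The normalized tag count and the input tags are signals that the authors scaled to 10000000 tags and to ChIP depth. The folds over input and over the local region, and the clonal fold, are ratios given by the authors. The deposited p-values are the caller's Poisson values and are not reported for single peaks. The deposited score is the caller's peak height.

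Peaks were chosen by midpoint and tabulated in Python 3.11.15 (pandas 2.3.3, numpy 2.4.6), with intervals from scipy 1.17.1 and plots from matplotlib 3.10.9. Input tags were recovered as tags over fold in whole steps of 0.945 scaled tags. The sources used here give neither the total of the input library nor the width of its counting window. Tag intervals are exact Poisson and fold intervals exact binomial. The neighbour count was tested on simulated peaks, and the Poisson intervals on simulated counts of a single mean. The binomial intervals were compared with a second routine at a single setting. Their conversion to folds was not tested. The rule named every locus peak, the 3 others of the window with most tags, the peaks nearest to each bound and 5 genes on each side of Vmp1. The locus, its window and the lists of dense windows and strong peaks were chosen with earlier results of these data known. Alternatives changed the peak filter, the bounds, the value per peak and the distance.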

Additional observations from a re-analysis of the deposited data

How the results depend on the processing

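The number of locus peaks, 5, was 4 with peaks of at least the median tag count, 7 with bounds 20 kb wider and 5 with bounds 20 kb narrower or with peaks wholly inside. It was 2 with peaks at least 8-fold over input, and with these the median tags of the locus lay 32 above the rest of the window, against 14 with all peaks. Only 2 locus peaks are then left. The difference of 14 was 13 with wider bounds, 13.5 without the strongest peak and 9 on the score. The score is the peak height from the same tags and is no separate check. The difference in input, 0.9 scaled tags, was also 0.9 with wider bounds. Input taken as tags over the listed fold gave 0.946, but this is the same input before rounding and no separate check. The count with a neighbour within 10 kb, 0, was also 0 within 5 kb and among peaks of at least the median tags, and 2 within 20 kb. No paired analysis was possible because there is 1 ChIP library, and for the same reason no replicate could be left out. At 6390234 ChIP tags, sites with a score below 9, the lowest in the list, are not listed. Nor are sites below 4-fold over input or over the local 10 kb. Where the local level is high, as at the leftmost members, a site needs more tags to be listed. Stretches between peaks are therefore not shown to be unbound.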
